A study of Arabidopsis thaliana with 29 samples.

Results

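Untreated seedlings that buffered Ca2+ in the cytosol (*PV-NES*) were compared with untreated seedlings that buffered it in the nucleus (*PV-NLS*). The members were chosen by label alone, as the 6 arrays of the 2 transgenic genotypes without hormone, out of 29 arrays in the series. Each genotype was represented by 3 independent lines with 1 array each, which were 1, 7 and 11 for *PV-NES* and 4, 5 and 8 for *PV-NLS*. All were *A. thaliana* of the Col-0 ecotype that expressed parvalbumin, joined to a nuclear export signal in *PV-NES* and to a nuclear localisation signal in *PV-NLS*. Seeds were stratified for 3 days at 4 °C, grown for 3 days at 22 °C under 16 h of light and 8 h of dark, and the seedlings were then kept for 5 days on half-strength medium with no hormone. The same 6 lines were also arrayed after 10 μM ABA, 50 μM MeJA or 1 μM ACC, the precursor of ethylene, with 1 array for each line and hormone (18 arrays), and untreated WT of the same ecotype had 2 arrays. The promoter that drove parvalbumin is not given in the sources used here. No probe set of the array was annotated as parvalbumin, so the transgene could not be checked in any sample. Each line is 1 insertion event and 1 array, and the n = 3 of a genotype therefore counts lines.

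Ca2+ is a second messenger in plant cells. Its level in the cytosol rises briefly after touch, cold, pathogens, hormones and low oxygen, and Ca2+ sensors such as calmodulins, calmodulin-like proteins (CMLs) and Ca2+-dependent kinases pass the rise on to transcription factors. The nucleus can show Ca2+ rises of its own. Parvalbumin, an animal protein with EF-hand Ca2+-binding sites and no known enzymatic activity, binds free Ca2+ and damps such rises in the compartment where it sits. The comparison asks which transcripts differ, without added hormone, between seedlings damped in the cytosol and seedlings damped in the nucleus.

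Values are log2 signals, the output of RMA, and a difference of 1 is a 2-fold difference. Median signals of the arrays lay between 5.28 and 5.36. Genes of photosynthesis encoded in the nucleus (7 measured) had mean log2 signals of 11.3 to 11.5 in the 6 arrays, as green seedlings have. The pollen genes *AGL65* and *AT5G45880* lay below the array median in every untreated array, at 4.05 to 4.49 and 3.05 to 3.64. Even at these low signals all 3 *PV-NES* lines lay above all 3 *PV-NLS* lines for both genes, as for 7.3% of all genes. Their mean differences were 0.22 and 0.40. In these whole-seedling samples a smaller share of a cell type and less RNA per cell cannot be told apart. Arrays of different lines correlated across genes with Pearson's r of 0.994 to 0.997 within *PV-NES*, 0.990 to 0.993 within *PV-NLS* and 0.988 to 0.995 between the genotypes. The 2 WT arrays were less alike (r = 0.984). Between them 580 genes differed by more than 2-fold, against 9 to 57 between lines of *PV-NES*, 60 to 143 between lines of *PV-NLS* and 70 to 234 between 1 line of each.

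For 2 genes, arrays of 1 line did not keep the level of that line. *AT5G06800*, a myb-like gene, had log2 signals of 5.92 and 6.99 in the control and ABA arrays of *PV-NES* line 7 but 3.09 and 3.18 in its MeJA and ACC arrays. The probe set 245908_at, for which no gene is named, had 5.39 and 6.71 in the control and ABA arrays of *PV-NLS* line 8 but 3.58 and 3.25 in its MeJA and ACC arrays. In both cases the untreated and ABA arrays stood towards the level of lines of the other genotype. Whether seed, RNA or labels of these lines were mixed was not tested, so the untreated values of lines 7 and 8 are those of the arrays labelled so. The main counts are given below also without these 2 arrays.

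No gene met both thresholds, a fold above 2 and an adjusted p under 0.05 (limma with Benjamini-Hochberg adjustment over 22589 genes, 0% called, smallest adjusted p = 0.202). At an unadjusted p under 0.05 stood 1846 genes (8.17%), of which 1038 were lower in *PV-NES* and 808 higher, and 40 of these also exceeded 2-fold. The difference of means exceeded 2-fold for 47 genes (0.208% of all), and these were mostly lower in *PV-NES*, with 43 lower (0.19%) and 4 higher (0.0177%). Without the untreated arrays of lines 7 and 8 there were 41 lower and 13 higher. The smallest difference past 2-fold was 1.04 on the log2 scale in size, and the largest within 2-fold was 0.99. Genes over which the 3 lines of one genotype all lay above the 3 lines of the other numbered 3627 (16.1%), with 1977 lower in *PV-NES* (8.75%) and 1650 higher (7.3%). Both conditions, over 2-fold and no overlap, held for 40 genes (0.177%), 37 lower and 3 higher. This count was 48 without the same 2 arrays. The 95% interval of the difference had a median half-width of 0.29 on the log2 scale, and for 22173 genes (98.2%) the whole interval lay within 2-fold in either direction. With 3 lines against 3 there are 20 splits, so an exact two-sided permutation test of a single gene could not go below p = 0.1, and none was used.

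**Figure D1:**
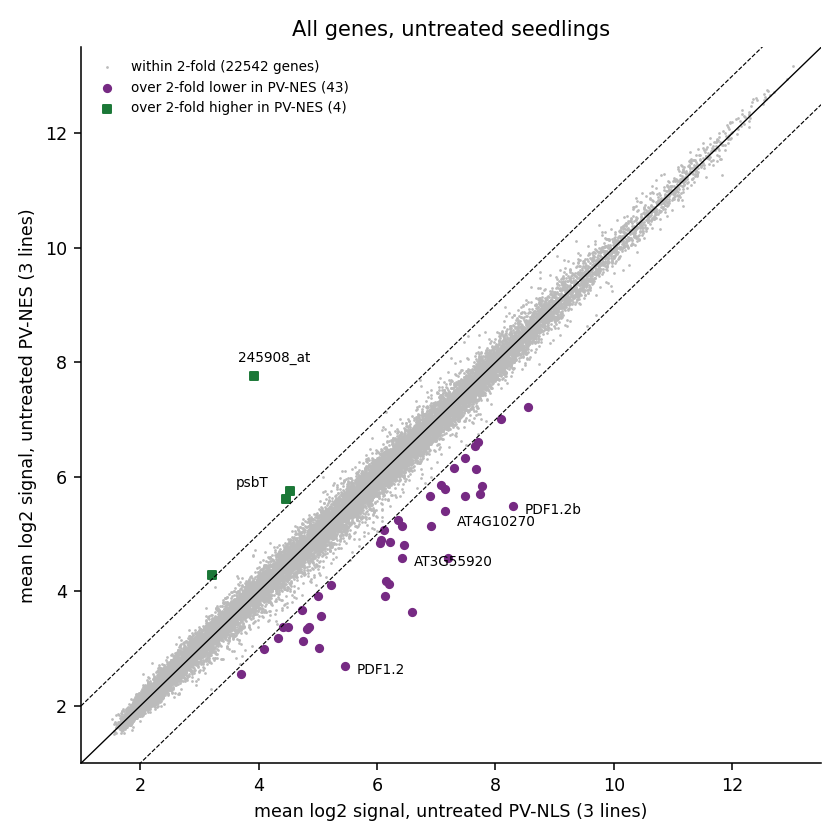
Mean log2 signal of each of 22589 genes in the 3 untreated *PV-NLS* lines (x axis) and the 3 untreated *PV-NES* lines (y axis), with equality as a solid line and 2-fold differences as dashed lines. Below the lower dashed line lie 43 genes and above the upper one 4, and none of them passed the test.

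Counts depended on which arrays set the spread. With only the 6 untreated transgenic arrays in the fit, 17 genes had an adjusted p under 0.05, 16 of them lower in *PV-NES*, and 9 of the 17 also exceeded 2-fold. The 3 named ones among those 9 were *AT5G20790*, *AT2G17740* and *AT4G37290*. With the 2 WT arrays added to these 6, the count was 0 (smallest adjusted p = 0.615), and it was 0 by the methods' t-test on the 6 arrays (smallest adjusted p = 0.423). For all 16 genes that were lower in the 6-array fit, WT control 2 exceeded WT control 1, against 47.2% of all genes.

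Of the 47 genes past 2-fold, 22 have a name, 21 lower in *PV-NES* and 1 higher. Many lay low on the arrays: the *PV-NES* mean was below the lowest array median for 28 of the 43 lower genes, and detection was not tested, so the size of such folds is uncertain. Plant defensins, small antifungal peptides whose genes respond to jasmonate with ethylene, differed by the largest amounts among the named genes. *PDF1.2b* had log2 signals of 5.57, 5.51 and 5.38 in lines 1, 7 and 11 of *PV-NES* and of 6.79, 10.41 and 7.67 in *PV-NLS* lines 4, 5 and 8, with 6.08 and 6.15 in WT. *PDF1.2* had 2.70, 2.66 and 2.75 in *PV-NES*, against 4.02, 7.79 and 4.55 for *PV-NLS*, with WT at 3.03 and 3.24. The lines did not overlap for either gene, the *PV-NES* lines lay together below WT, and line 5 stood far above the other *PV-NLS* lines. The difference of *PDF1.2b* was -2.80 on the log2 scale (7.0-fold lower, with a standard error of 0.86 and an adjusted p of 0.44) and that of *PDF1.2* was -2.75 (6.7-fold lower, standard error 0.93, adjusted p = 0.48). Without line 5 the differences were -1.74 and -1.59. All 3 *PV-NES* values of *PDF1.2* lay far below the array medians, which leaves its fold uncertain. These 2 genes are near-identical copies and a probe set of one may read the other, so they count as 1 observation rather than 2.

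A chitinase family gene, *AT2G43620*, whose kind of enzyme attacks fungal cell walls, had 6.73, 5.17 and 5.18 in *PV-NES* against 7.47, 8.17 and 7.58 in *PV-NLS*. The lines did not overlap, lines 7 and 11 were lowest, and the WT values of 7.24 and 8.50 lay with *PV-NLS*. Its difference was -2.05 (4.1-fold lower in *PV-NES*, standard error 0.60, adjusted p = 0.44). *AT5G55450*, of the lipid transfer protein family, had 6.99, 6.44 and 6.41 in *PV-NES* against 7.62, 7.94 and 7.57 in *PV-NLS*, a difference of -1.10 with no overlap. *CYP71B22*, a cytochrome P450, had 5.26, 5.30 and 4.86 in *PV-NES* against 5.80, 6.95 and 6.51 in *PV-NLS*, with WT at 6.35 and 6.12. Both WT arrays lay among the *PV-NLS* lines and above every *PV-NES* line for this gene. Its difference of -1.28 (standard error 0.29, adjusted p = 0.32) shared the lowest adjusted p of the named genes with *AT4G10270*.

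*AT4G10270*, of a wound-responsive protein family and strongly induced by low oxygen, had 6.06, 4.99 and 5.17 in lines 1, 7 and 11 of *PV-NES* and 6.54, 7.82 and 7.10 in *PV-NLS* lines 4, 5 and 8. Its lines did not overlap, and both WT arrays (6.76 and 7.08) lay above every *PV-NES* line. The difference was -1.75 (3.4-fold lower, standard error 0.41, adjusted p = 0.32) and lay between -2.07 and -1.42 when 1 array was left out. *AT3G10040* encodes HYPOXIA RESPONSE ATTENUATOR1, a trihelix transcription factor that restrains the low-oxygen response. It had 3.55, 3.17 and 3.41 in *PV-NES* against 3.73, 5.19 and 4.33 in *PV-NLS*, with no overlap and a difference of -1.04 (standard error 0.27, adjusted p = 0.42). That difference was -0.65 without line 5, the highest *PV-NLS* line.

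*STZ*, which encodes a zinc finger repressor induced by salt, cold and touch, had 6.29, 6.30 and 6.41 in *PV-NES* against 7.59, 7.85 and 7.02 in *PV-NLS*, with no overlap. Its difference was -1.15 (2.2-fold lower, standard error 0.53, adjusted p = 0.59). The 2 WT arrays stood on either side of both genotypes, at 5.41 and 8.18, so that the distance between WT arrays exceeded the difference between genotypes. *AT5G20790* showed the same arrangement, with 6.34, 5.50 and 5.71 in *PV-NES*, against 7.62, 7.93 and 7.77 for *PV-NLS*, with WT at 5.49 and 8.67. Its difference was -1.93 (3.8-fold lower, standard error 0.57, adjusted p = 0.44), and in the fit on the 6 arrays alone its adjusted p was 0.0107. *AT1G65500* had 5.98, 5.18 and 5.84 in *PV-NES* against 7.95, 6.79 and 7.73 in *PV-NLS*, with WT at 6.04 and 8.03 and a difference of -1.82 (standard error 0.49, adjusted p = 0.44).

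A further 6 named genes with no overlap were lower in *PV-NES* by 1.06 to 1.14 on the log2 scale. *AT5G62360* encodes a pectin methylesterase inhibitor family protein, and its *PV-NES* lines were close together at 6.61, 6.53 and 6.50 against 8.21, 7.49 and 7.27 in *PV-NLS*. *AT1G03020*, a glutaredoxin gene, had 2.88, 2.79 and 3.31 against 4.30, 3.60 and 4.36. *AT1G78410*, of the VQ-motif family that binds WRKY factors, had 4.04, 3.67 and 3.32 against 4.60, 4.74 and 4.86. *AT2G17740*, which encodes a Cys/His-rich C1 domain protein, had 3.55, 3.39 and 3.23 against 4.69, 4.20 and 4.62, *AT4G37290* had 3.92, 4.18 and 4.27 against 5.47, 5.23 and 4.96, and *AT5G52760*, with a heavy-metal-binding domain, had 2.91, 2.47 and 2.30 against 3.97, 3.05 and 4.07. In the fit on the 6 arrays the adjusted p was 0.0243 for *AT2G17740* and 0.0262 for *AT4G37290*, and in the fit on all arrays 0.56 for both. Signals lay below the array median in all 6 arrays for *AT1G03020*, *AT2G17740*, *AT1G78410*, *AT5G52760*, *AT3G10040* and *AT3G05170*.

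**Figure D2:**
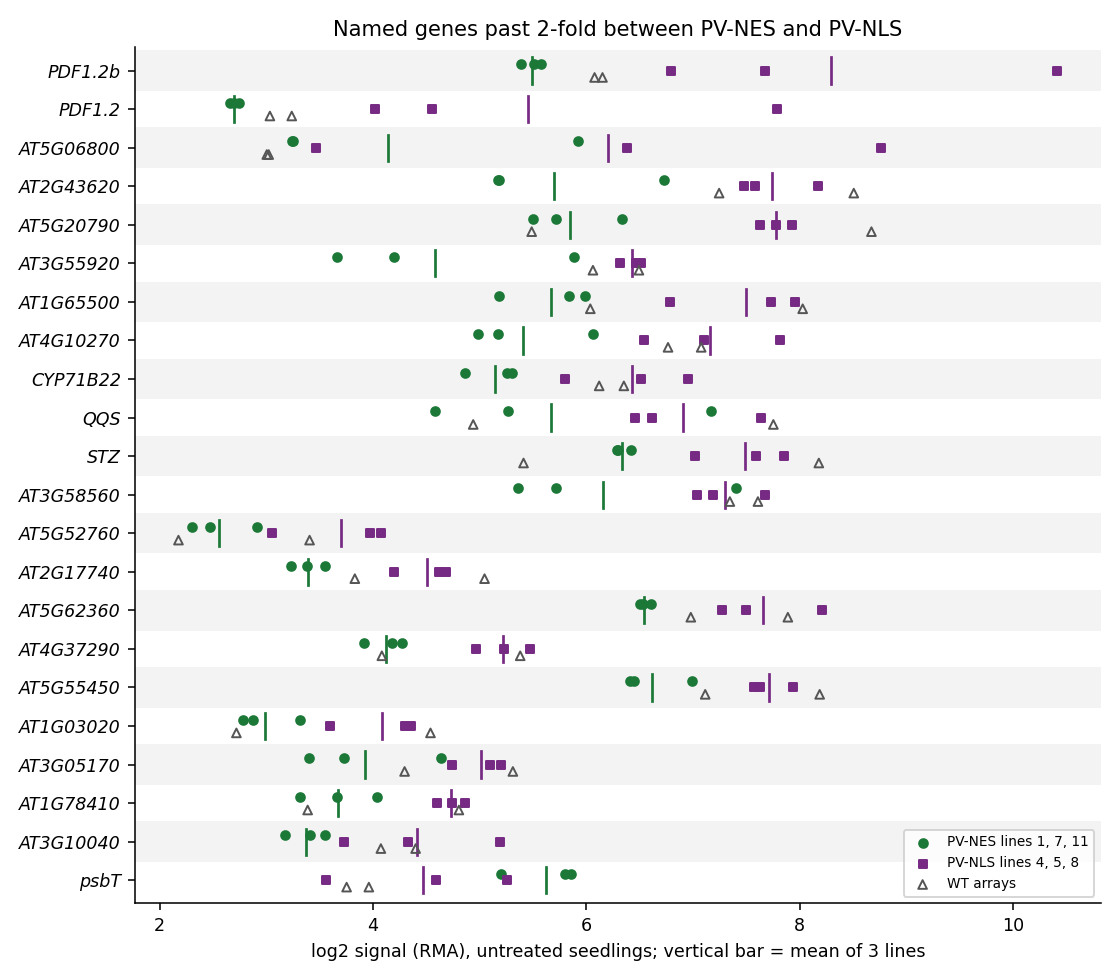
Log2 signal (x axis) of the 22 named genes whose genotype means differ by more than 2-fold, with the 3 *PV-NES* lines as circles, the 3 *PV-NLS* lines as squares, the 2 WT arrays as open triangles and the genotype means as bars. The *PV-NES* means lie left of the *PV-NLS* means in 21 of the 22 genes, and the WT arrays often span both.

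Where the WT arrays stood bears on all 43 genes that were lower in *PV-NES*. WT control 2 exceeded WT control 1 for 38 of the 43, against 47.2% of all genes, and by more than 2-fold for 25 of the 43, against 2.1% of all genes. The distance between the 2 WT arrays exceeded the difference between the genotypes for 19 of the 43. WT control 1 lay at or below the highest *PV-NES* line for 24 of them, and WT control 2 lay at or above the lowest *PV-NLS* line for 38. Against the mean of the 2 WT arrays, 42 of the 43 had a lower mean in *PV-NES* and 39 a higher mean in *PV-NLS*. The 43 were chosen with *PV-NES* below *PV-NLS*, so these counts are partly set by that choice. By the same thresholds 1 gene was called for untreated *PV-NES* against WT, and for *PV-NLS* against WT 0 were. The part that the difference between the WT arrays had in these values was not tested.

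Among genes higher in *PV-NES*, the probe set 245908_at differed most. It had 6.30, 8.56 and 8.44 in *PV-NES* lines 1, 7 and 11, 3.17, 3.19 and 5.39 in *PV-NLS* lines 4, 5 and 8, and 4.61 and 3.01 in WT. The lines did not overlap, and lines 7 and 11 were far above line 1. Its difference was 3.84 (14.4-fold higher in *PV-NES*, standard error 1.02, adjusted p = 0.43), a fold whose size is uncertain because *PV-NLS* lines 4 and 5 lay far below the array medians. The plastid gene *psbT*, which encodes a small subunit of photosystem II, had 5.20, 5.85 and 5.80 in *PV-NES* against 3.56, 4.59 and 5.25 in *PV-NLS*. Here *PV-NLS* line 8 reached *PV-NES* line 1, so the lines overlapped, and the difference was 1.15 (standard error 0.36, adjusted p = 0.44), or 0.70 without *PV-NLS* line 4. Among genes under 2-fold, *BHLH101*, a transcription factor gene induced by iron deficiency, had 6.37, 6.84 and 6.80 in *PV-NES* against 5.92, 5.65 and 6.16 in *PV-NLS*. Its difference was 0.76 (adjusted p = 0.67) with no overlap, and the WT arrays lay outside both genotypes at 6.87 and 4.90. The expansin genes *EXPB3* and *EXPA15*, whose products loosen cell walls, differed by 0.54 and 0.51 (adjusted p = 0.49 and 0.48), also with no overlap. They belong to a cell wall list of 50 measured genes in which 25 were higher and 25 lower, with a median of -0.01.

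Members of a list count as measured only where a probe set names them alone, and 14 of 44 lists had 0 such members. In no list was any member called. Over all genes the median difference was 0.00, 49.3% were negative and 8.75% were lower in *PV-NES* with no overlap.

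Low-oxygen response genes, which plants switch on when oxygen runs short and which include several small proteins of unknown function, had 7 measured of 19 listed. All 7 were lower in *PV-NES*, 6 with no overlap, and the median difference was -0.61. Besides *AT4G10270* and *AT3G10040* these were *AT1G33055* (-0.87), *AT4G33560* (-0.61), *AT4G24110* (-0.60), *AT5G10040* (-0.25) and, with overlapping lines, *AT5G66985* (-0.05). Mean log2 signals over the 7 were 4.36, 4.17 and 4.26 in *PV-NES* lines 1, 7 and 11, 4.70, 5.40 and 4.91 in *PV-NLS* lines 4, 5 and 8, and 4.99 and 4.95 in WT. The WT arrays thus lay among the *PV-NLS* lines and did not differ from each other as they did for the touch genes. Without line 5 the median was -0.35, and without the arrays of lines 7 and 8 all 7 stayed lower (median -0.81).

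Touch and early stress genes, which respond within minutes to mechanical or other disturbance, had 5 measured of 25 listed. All 5 were lower in *PV-NES* and the median was -0.55, with no overlap for *STZ*, *WRKY53* and *CML38*. *WRKY53*, a transcription factor gene of senescence and defence, had 5.31, 5.37 and 5.59 in *PV-NES* against 6.16, 6.30 and 5.81 in *PV-NLS* (difference -0.67, adjusted p = 0.66). *CML38*, a calmodulin-like gene, had 5.41, 5.33 and 5.54 against 5.92, 5.97 and 6.06 (difference -0.55, adjusted p = 0.77). The 2 WT arrays gave a mean over the 5 genes of 3.84 and 5.18, outside the range of the transgenic lines on either side (4.39 to 4.53 in *PV-NES*, 4.79 to 5.15 in *PV-NLS*).

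Genes that sense or carry Ca2+ were measured in part. Genes were taken by symbol here, so members that the annotation gives only as a locus are not in these counts. Of genes with a CML symbol, 7 were measured and all 7 were lower in *PV-NES*, from -0.55 for *CML38* to -0.04 for *CML43*, with a median of -0.24. Lines failed to overlap only for *CML38* among the 7. After ABA 5 of the 7 were higher in *PV-NES* (median 0.24). Untreated WT arrays 1 and 2 had means over the 7 of 4.55 and 5.14. Of those with a symbol of Ca2+ channels, pumps and exchangers, 7 were measured, all of them glutamate receptor-like channels, with 4 higher and 3 lower and a median of 0.01. *GLR2.7* had the largest difference of these (-0.41, adjusted p = 0.46, no overlap). The study's own list of 232 Ca2+ signal-decoding genes had 69 measured, of which 7 were lower and 3 higher with no overlap, and the median was -0.08. With or without overlap, 27 of its members were higher in *PV-NES* and 42 lower. This list was matched by locus, and its members without a symbol lay on both sides of 0, such as *AT5G17470* (0.24) and *AT3G03000* (-0.30). The direction shared by the 7 genes with a CML symbol is thus not shown for the whole family. No measured gene carried a symbol of the Ca2+-dependent kinases or of the CBL and CIPK proteins.

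Genes encoded in the plastid formed the largest measured list with a shift to higher values in *PV-NES*. Of 69 measured, 65 were higher in *PV-NES* (94.2%), 21 of them with no overlap (30.4%, against 7.3% of all genes) and 2 were lower with no overlap, *rps15* and *petN*. The median difference was 0.25, and it lay between 0.18 and 0.38 with 1 array left out. Without the untreated arrays of lines 7 and 8, 57 of the 69 were higher (median 0.25). Mean log2 signals over the 69 were 8.21, 8.63 and 8.37 in *PV-NES* lines 1, 7 and 11, 7.93, 8.13 and 8.22 in *PV-NLS* lines 4, 5 and 8, and 8.22 and 7.96 in WT. Line 1 of *PV-NES* and line 8 of *PV-NLS* overlapped in this mean, and the *PV-NES* lines differed more among themselves than the genotype means did. The 69 genes were read on the same 6 arrays, so they do not count as 69 independent observations. All 15 measured subunits of photosystem II, which splits water, were higher (median 0.44), as were all 5 of photosystem I (0.29), all 6 of the ATP synthase (0.19) and all 4 of the plastid RNA polymerase (0.26). Of the NDH complex, which returns electrons to the electron transport chain, 9 of 10 were higher (0.24). The cytochrome b6f complex had 5 of 6 higher (0.40), the small ribosomal subunit 7 of 8 (0.27) and the large one all 7 (0.20). *atpA*, for the catalytic-core alpha subunit of the ATP synthase, had 9.44, 9.95 and 9.35 in *PV-NES* against 8.39, 9.21 and 8.63 in *PV-NLS* (difference 0.84, adjusted p = 0.49). *petA*, for cytochrome f, had 10.93, 11.25 and 11.06 against 10.26, 10.85 and 10.83 (difference 0.43, adjusted p = 0.44), and *cemA*, for an envelope membrane protein, 9.63, 9.68 and 9.52 against 8.69, 9.20 and 9.37 (0.52, adjusted p = 0.44). Without *PV-NLS* line 4 the differences of *petA* and *cemA* were 0.24 and 0.33. The 7 nuclear genes of photosynthesis had a median of 0.05, with 4 higher and 3 lower.

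**Figure D3:**
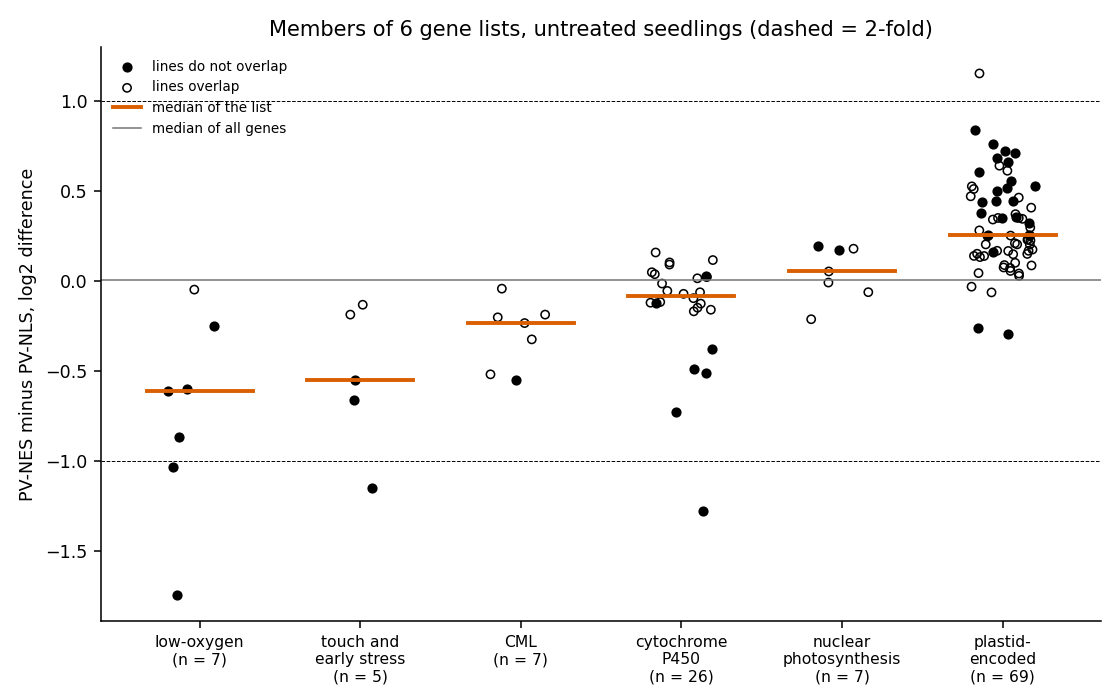
Difference of mean log2 signal, *PV-NES* minus *PV-NLS* (y axis), for the measured members of 6 gene lists in untreated seedlings, with filled points where the 3 lines of each genotype do not overlap. All 7 low-oxygen, all 5 touch and all 7 genes with a CML symbol lie below 0, and 65 of 69 plastid-encoded genes lie above it.

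Larger families had medians within 0.1 of that of all genes. Of 26 cytochrome P450 genes, 6 were lower with no overlap and 1 higher, and the median was -0.09, with *CYP71B23* (-0.73, adjusted p = 0.53) next after *CYP71B22*. Of 59 UDP-glycosyltransferase and glutathione S-transferase genes, 36 were higher and 23 lower (median 0.03), *UGT76E11* being lowest at -0.60. Peroxidase and beta-glucosidase genes (21 measured) had a median of 0.02, and the highest was *BGLU19* at 0.73 (0.31 without *PV-NES* line 1). Genes induced by ABA, drought and cold (7 measured of 17 listed) had a median of 0.04 with 0 members free of overlap. Jasmonate response genes (4 measured of 13) were all lower in *PV-NES* with a median of -0.33, from -2.75 for *PDF1.2* to -0.15 for *THI2.1*, and only *PDF1.2* among them had lines that did not overlap. The 5 measured histone genes were lower by 0.04 to 0.45 (median -0.12), 3 of them with no overlap. *HTR12*, the centromeric histone H3, differed by the most (-0.45, or -0.28 without *PV-NLS* line 4), and without the arrays of lines 7 and 8 the difference was positive for 2 of the 5.

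The same 6 lines treated with hormone gave the comparison again on other arrays. Of the 43 genes lower in untreated *PV-NES*, 16 were lower after ABA, 33 after MeJA and 25 after ACC, or 37.2%, 76.7% and 58.1%, where 51.5%, 51.9% and 44.7% of all genes were. Their median difference was -1.35 untreated, 0.23 after ABA, -0.37 after MeJA and -0.07 after ACC. The 43 were chosen by their untreated values. The untreated median is thus set by that choice and cannot be weighed against those after hormone. Under ABA, 11 of the 43 were higher in *PV-NES* with no overlap and 3 lower, where 8.69% and 8.39% of all genes were. Only 3 of the 43 were lower with no overlap after MeJA, and 3 after ACC, with 0 higher after either. Of all 22589 genes, 2312 were lower with no overlap after MeJA and 1782 after ACC. Whether the difference itself changed with hormone was tested by interaction contrasts in limma, and 0 genes passed for ABA, MeJA or ACC (smallest adjusted p = 0.176, 0.861 and 0.196), with 139, 33 and 61 genes over 2-fold at an unadjusted p under 0.05.

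The low-oxygen list was reversed in sign after ABA, where all 7 members were higher in *PV-NES* (median 0.57), and the touch list likewise, with all 5 higher (median 0.94). For *AT4G10270* the difference was 1.07 after ABA against -1.75 untreated, a change of 2.81 (adjusted p = 0.20 in limma), and for *STZ* it was 1.26 against -1.15, a change of 2.41 (adjusted p = 0.31). Both genes were named for their untreated values, which also enter these changes. After MeJA and ACC the medians of these lists lay between -0.14 and 0.07. Among plastid-encoded genes 59 of 69 were higher in *PV-NES* after MeJA (median 0.22), but 28 after ABA and 32 after ACC, with medians of -0.06 and -0.04.

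**Figure D4:**
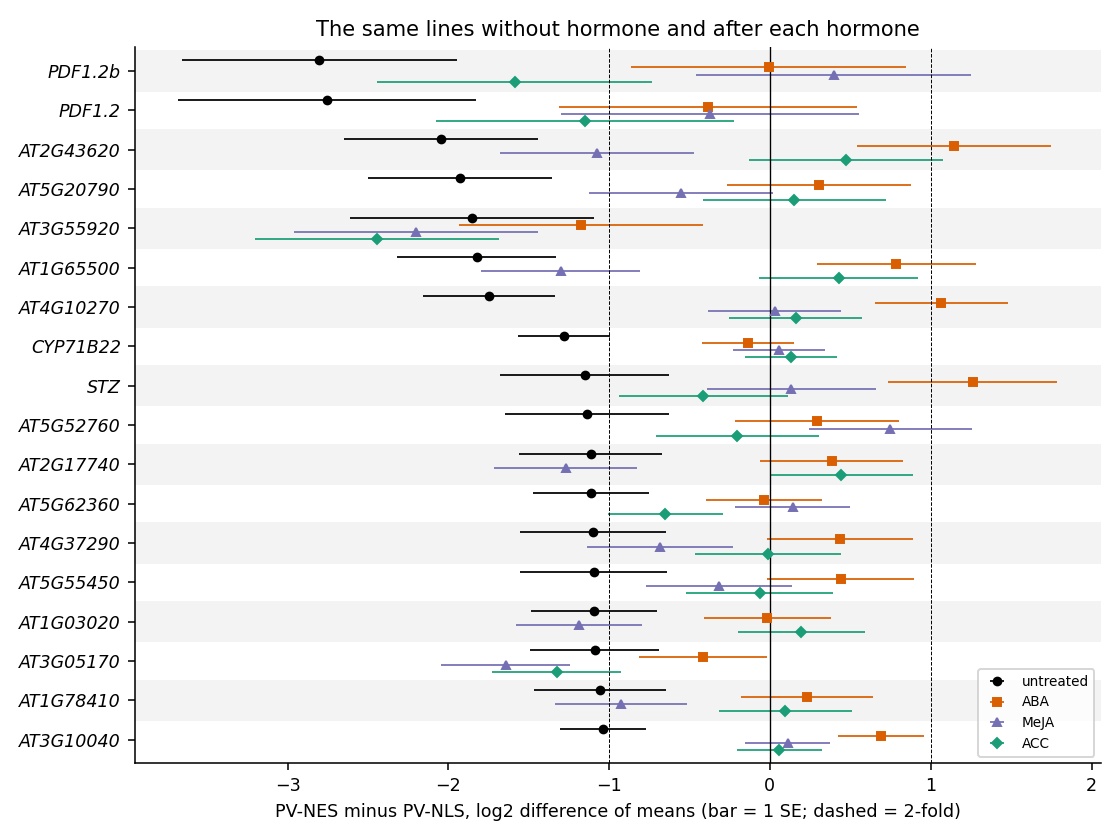
Difference of mean log2 signal, *PV-NES* minus *PV-NLS* (x axis, bars 1 standard error, n = 3 lines each), for the 18 named genes past 2-fold whose untreated lines do not overlap, without hormone and after ABA, MeJA and ACC. All 18 untreated differences lie below -1, by the choice of genes. Several lie below -1 after MeJA as well, while most lie above 0 after ABA and those after ACC lie on both sides of 0.

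MeJA was the hormone under which genes were called between the genotypes, 21 of them (0.093%), with 9 lower in *PV-NES* and 12 higher, against 0 after ABA and 0 after ACC. The smallest adjusted p in limma was 0.017 after ABA and 0.012 after ACC. There, adjusted p under 0.05 was thus reached, but not together with a fold above 2. All 21 had the same sign in untreated seedlings, 10 of them with no overlap, where 16.1% of all genes had none in either direction. The sign seen after MeJA was shared by 11 of the 21 after ABA and by 15 after ACC. The untreated differences of the 9 lower genes ranged from -1.09 to -0.27 and of the 12 higher genes from 0.07 to 3.84. Of these, *AT3G05170* and 245908_at exceeded 2-fold without hormone as well. *UGT76E12*, a UDP-glycosyltransferase gene, was lower by 2.06 after MeJA (adjusted p = 0.0014 in limma) and by 0.28 untreated, where its lines overlapped.

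A fold above 2 in the same direction in all 4 conditions was seen for 5 genes (0.0221%), and all 5 differed widely between lines of 1 genotype. *AT3G55920*, a cyclophilin-like peptidyl-prolyl isomerase gene, had untreated values of 5.88, 3.66 and 4.19 in lines 1, 7 and 11 of *PV-NES* and of 6.46, 6.51 and 6.31 in *PV-NLS*, with WT at 6.06 and 6.49. Line 1 lay just under *PV-NLS* and WT, while lines 7 and 11 were far below in every treatment (2.63 to 4.89, against 5.88 to 6.30 in line 1). *QQS*, a gene found only in this species that affects starch content and whose expression varies with DNA methylation between individuals and accessions, had 7.16, 4.58 and 5.27 in *PV-NES*, against 7.64, 6.61 and 6.45 for *PV-NLS*, with WT at 4.94 and 7.75. Again line 1 stood with *PV-NLS*, so the untreated lines overlapped (difference -1.23, adjusted p = 0.76). That difference was -0.68 without line 7 and -1.97 without line 1. *AT5G06800* had 3.25, 5.92 and 3.24 in *PV-NES* against 3.47, 6.38 and 8.76 in *PV-NLS*, high in lines 5 and 8 in every treatment and in line 7 only in the control and ABA arrays. Without line 8 its difference was -0.78 in place of -2.06. The probe set 261037_at was high in *PV-NLS* line 5 alone, at 9.86 against 3.74 to 4.66 in the other 5 untreated arrays, and without line 5 its difference of -2.22 became -0.36.

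*AT3G58560*, of the DNase I-like family, and *AT3G05170*, of the phosphoglycerate mutase family, were likewise low in lines 7 and 11. The untreated values of *AT3G58560* were 7.40, 5.36 and 5.72 in *PV-NES* against 7.19, 7.68 and 7.03 in *PV-NLS*, and those of *AT3G05170* were 4.64, 3.73 and 3.40 against 5.20, 4.74 and 5.10. The difference of *AT3G58560* was -1.14, or -0.74 without line 7 and -1.76 without line 1. In *AT3G55920*, *QQS* and *AT3G58560* the values of lines 7 and 11 were higher in the control and ABA arrays than in the MeJA arrays. For *QQS* line 7 had 4.58 and 5.74 in control and ABA against 3.59 in MeJA and 3.42 in ACC. What part these differences between single lines had in the genotype difference was not tested.

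**Figure D5:**
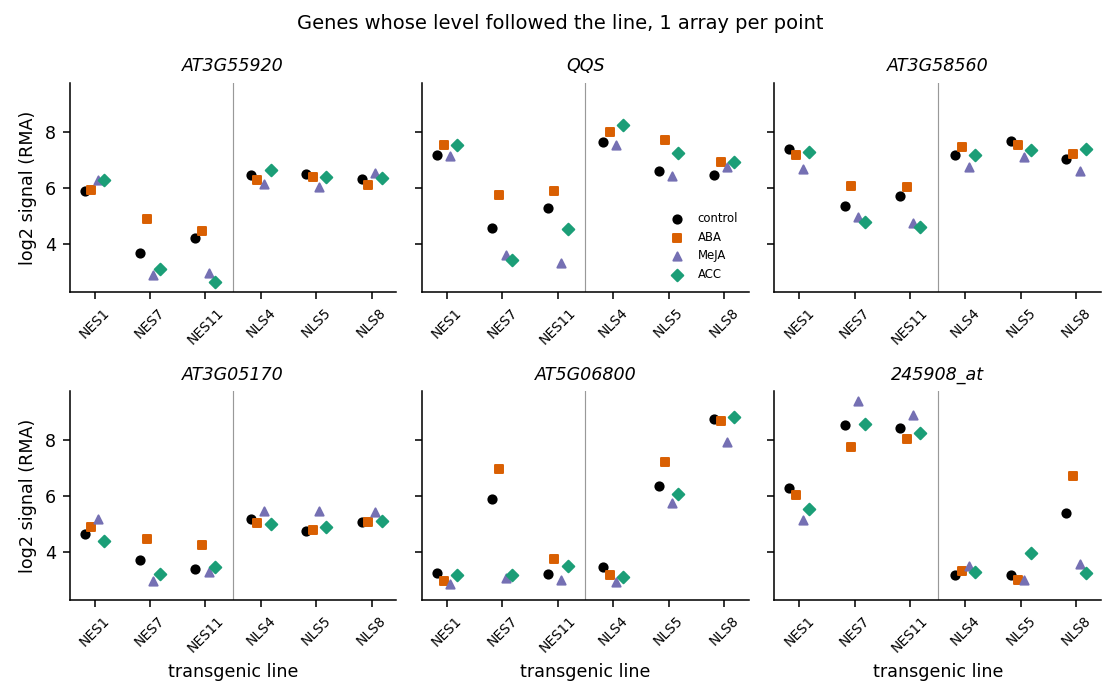
Log2 signal (y axis) of 6 genes in each of the 6 transgenic lines (x axis), with 1 array per point and symbols for control, ABA, MeJA and ACC. Lines 7 and 11 of *PV-NES* lie below all other lines for *AT3G55920* and *AT3G58560*, and the control and ABA arrays of *PV-NES* line 7 (*AT5G06800*) and *PV-NLS* line 8 (245908_at) lie apart from the MeJA and ACC arrays of the same line.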

How the data were processed

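RNA of whole *A. thaliana* seedlings was hybridised to Affymetrix ATH1 arrays. The authors deposited a log2 signal for each probe set, made by RMA (background correction, quantile normalisation and summary of probes). Base 2 was inferred from a range of 1.345 to 13.261. RMA sets all arrays to 1 distribution, so a shift of most genes together would not be seen. The values were used without further normalisation, detection calls were not used, and precision is limited by how many arrays there are.

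The array holds 22810 probe sets, of which 64 are controls and were dropped. The annotation names 1 gene for 13513 probe sets, several for 503 and none for 8730, and those with several or none kept their probe set ID in the tests. Symbols were brought up to date through RefSeq (TAIR10.1), and the probe set with the highest mean stood for a gene, which left 22589 genes. Lists count only members that a probe set names alone.

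The means of 12 groups were fitted to all 29 arrays with limma 3.58.1 in R 4.3.3, with 1 moderated variance per gene (17 residual and 5.94 prior degrees of freedom). *PV-NES* minus *PV-NLS* was the contrast, also after each hormone, and interaction contrasts compared it with the untreated one. P-values are two-sided, by limma's moderated test, and were adjusted by Benjamini and Hochberg over all genes. As in the methods of the study, a call needed more than 2-fold and an adjusted p under 0.05. P-values rest on the spread between arrays within groups, pooled over untreated and hormone-treated arrays. That spread includes the difference between the WT controls, and arrays of the same line were entered as independent. The scripts were tested on simulated data. Named are the called genes, up to 12 named genes a direction with the smallest p among those past 2-fold without overlap, 2 members of each list with the smallest p, and genes called after all 3 hormones. The other genes past 2-fold, the probe sets without a name and further list members were named after their values were seen. The genes, lists and tests were chosen with earlier results of these data known, and the plastid list was defined by chromosome after the annotation was seen.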

Additional observations from a re-analysis of the deposited data

Results flagged for a closer look

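For 11 of the 43 genes over 2-fold lower in untreated *PV-NES*, the 3 *PV-NES* lines all lay below the 3 *PV-NLS* lines without hormone and all above them after ABA, on other arrays of the same lines. Over all genes this held for 240 (1.06%), but the 43 were chosen by their untreated difference, so the 2 shares are not alike. Without hormone the lines were lower in *PV-NES* with no overlap for 37 of the 43, and for 1977 of all genes (8.75%). Of the 11, 7 have a name. After ABA the log2 difference, *PV-NES* minus *PV-NLS*, was 1.26 for *STZ* (untreated -1.15), 1.15 for *AT2G43620* (-2.05), 1.07 for *AT4G10270* (-1.75), 0.785 for *AT1G65500* (-1.82), 0.69 for *AT3G10040* (-1.04), 0.441 for *AT5G55450* (-1.10) and 0.435 for *AT4G37290* (-1.10). By limma's interaction contrast none of these 7 changes passed, with adjusted p from 0.20 for *AT4G10270* to 0.40 for *AT5G55450*. With 1 array a line and condition, a change of the genotype difference and a difference between the sets of arrays cannot be told apart.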

How the results depend on the processing

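The count of 0 genes called without hormone held in the fit on the 8 untreated arrays, on the 24 transgenic arrays, with arrays centred, with all probe sets, with dim genes left out, with trended and robust variances, by the methods' t-test and with 1 array left out (smallest adjusted p from 0.066 without *PV-NLS* line 5 to 0.691 without *PV-NES* line 7). It was 9 with only the 6 untreated transgenic arrays in the fit and 9 when these were also normalised again. The 6-array fit rests on 4 residual degrees of freedom, and what raised its count was not tested. Genes past 2-fold at an unadjusted p under 0.05 numbered 40 untreated, 37 after ABA, 49 after MeJA and 20 after ACC, and 139, 33 and 61 for the changes with ABA, MeJA and ACC. Genes past 2-fold with no overlap numbered 23 instead of 40 when dim genes were left out, since the rest of the 40 were themselves dim. They numbered 38 to 50 with 1 array left out. After ACC the count was 1 in place of 0 with trended and robust variances, and 0 to 1 with 1 array left out. Replicate numbers did not pair the samples (r of same-numbered deviations -0.25, -0.12 and 0.14), and with the number or the line as a replicate block the count was 0.

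No named gene past 2-fold changed sign under any alternative. Of the other list members, those near 0 did with 1 array left out. Their log2 differences ranged from -0.039 to 0.060 for *PYE*, from -0.073 to 0.105 for *PAP85*, from -0.226 to 0.179 for *ICL*, from -0.047 to 0.054 for *EIN3*, from -0.095 to 0.011 for *NAC014*, from -0.079 to 0.103 for *TRY* and from -0.050 to 0.129 for *AIM1*. Without *PV-NES* line 7 and *PV-NLS* line 8 together, *PYE* was at -0.029 and *PAP85* at -0.023. That setting and the fit on 24 arrays were added after the data were seen.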
